A study of Mus musculus with 2 samples.

Results

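Autophagy genes encode the proteins that build the autophagosome, a double membrane that closes around cytoplasm and delivers it to the lysosome for breakdown. The 36 genes described here are a list of symbols, matched by the gene-name field of the deposited tables with no threshold on a measured value. They are 36 of 55536 annotated genes and of 22015 nuclear protein-coding genes. Total RNA was sequenced from the cerebral cortex of the left side in B6CASTF1/J mice, females of 18 to 20 months, which are first-generation offspring of a C57BL/6J by CAST/EiJ cross. There was 1 group of 2 libraries, biological replicates 1 and 2, each made from 300 ng of RNA, with no treatment and no younger animals to compare. Both biosamples carry the same donor entry in the labels, so it is not clear that they came from separate animals, and the spread between them may be technical.

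A kinase complex around ULK1 starts the process, a lipid kinase complex around Beclin 1 marks the membrane, and ATG9 and ATG2 supply lipid. Ubiquitin-like conjugation then attaches proteins of the ATG8 family to the growing membrane, where cargo receptors bind them. Neurons do not divide, and loss of Atg5 or Atg7 in the mouse nervous system is known to let ubiquitin-bearing protein aggregates build up.

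Levels are given in TPM, a measure of read number per transcript length and per library total, and come from gene tables that rest on a transcriptome alignment ("alignment-based"). A further set of transcript tables, which uses no alignment ("alignment-free"), was used to check levels and transcripts. The depth was 32504959 expected counts for replicate 1, against 24899781 for replicate 2, and the members had 76 to 13353 counts each. The tissue label was checked against fixed marker genes. Neuronal Slc17a7 reached 558 TPM in replicate 1, against 547 TPM in replicate 2, and liver Alb had 0 counts in both. Some markers of astrocytes, vessels, choroid plexus and blood differed between the libraries: the log2 ratio of replicate 1 over replicate 2 was 0.90 for Gfap, 0.68 for Cldn5 and 0.72 for Hba-a1, and Ttr had 164 counts in replicate 1, against 52 in replicate 2. Other markers of astrocytes and vessels differed little, with log2 ratios of -0.05 for Slc1a2, 0.06 for Aqp4 and 0.10 for Flt1.

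ATG8 proteins are made as precursors and are cut by ATG4 proteases after a glycine, which is then joined to a membrane lipid. The ends of the 5 coding sequences are shown because the glycine at which they are cut is shared by all of them. Each runs 5′ to 3′ on the coding strand to the stop codon, with the glycine codon in capitals, from GENCODE M21 transcripts on mm10. The genes lie at chr2:155276297-155278073 (Map1lc3a), chr8:121590361-121598760 (Map1lc3b), chr11:69991143-69994951 (Gabarap), chr6:129533160-129542346 (Gabarapl1) and chr8:111940703-111953612 (Gabarapl2), all on the plus strand.
Map1lc3a: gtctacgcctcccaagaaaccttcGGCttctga
Map1lc3b: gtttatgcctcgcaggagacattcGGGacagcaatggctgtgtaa
Gabarap: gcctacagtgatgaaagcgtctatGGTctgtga
Gabarapl1: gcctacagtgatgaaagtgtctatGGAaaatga
Gabarapl2: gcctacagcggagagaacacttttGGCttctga
Map1lc3b carried 5 codons after the glycine and the other 4 genes carried 1 each. Over their aligned coding bases, Map1lc3a and Map1lc3b were 76.0% identical and Gabarap and Gabarapl1 were 74.9% identical. Gabarapl2 was 61.9% identical to Gabarap and 63.8% identical to Gabarapl1. Identity between the LC3 genes and the GABARAP genes was 51.4% to 59.5%.

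All 36 members were detected at 1 TPM or more in both libraries, against 58.3% of nuclear protein-coding genes. The median member stood at 27.1 ± 1.88 TPM (SD, n = 2), against a median of 15.8 TPM over the 12844 protein-coding genes detected in both libraries. Of the members, 29 lay above that median, 13 above its upper quartile of 35.4 TPM and 2 below its lower quartile of 6.43 TPM. The spread between libraries was small, with a median coefficient of variation of 5.27% and a highest value of 26.2% for Atg4a. In the order of levels, 19 of the 35 neighbouring pairs had library values that overlapped.

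**Figure D1:**
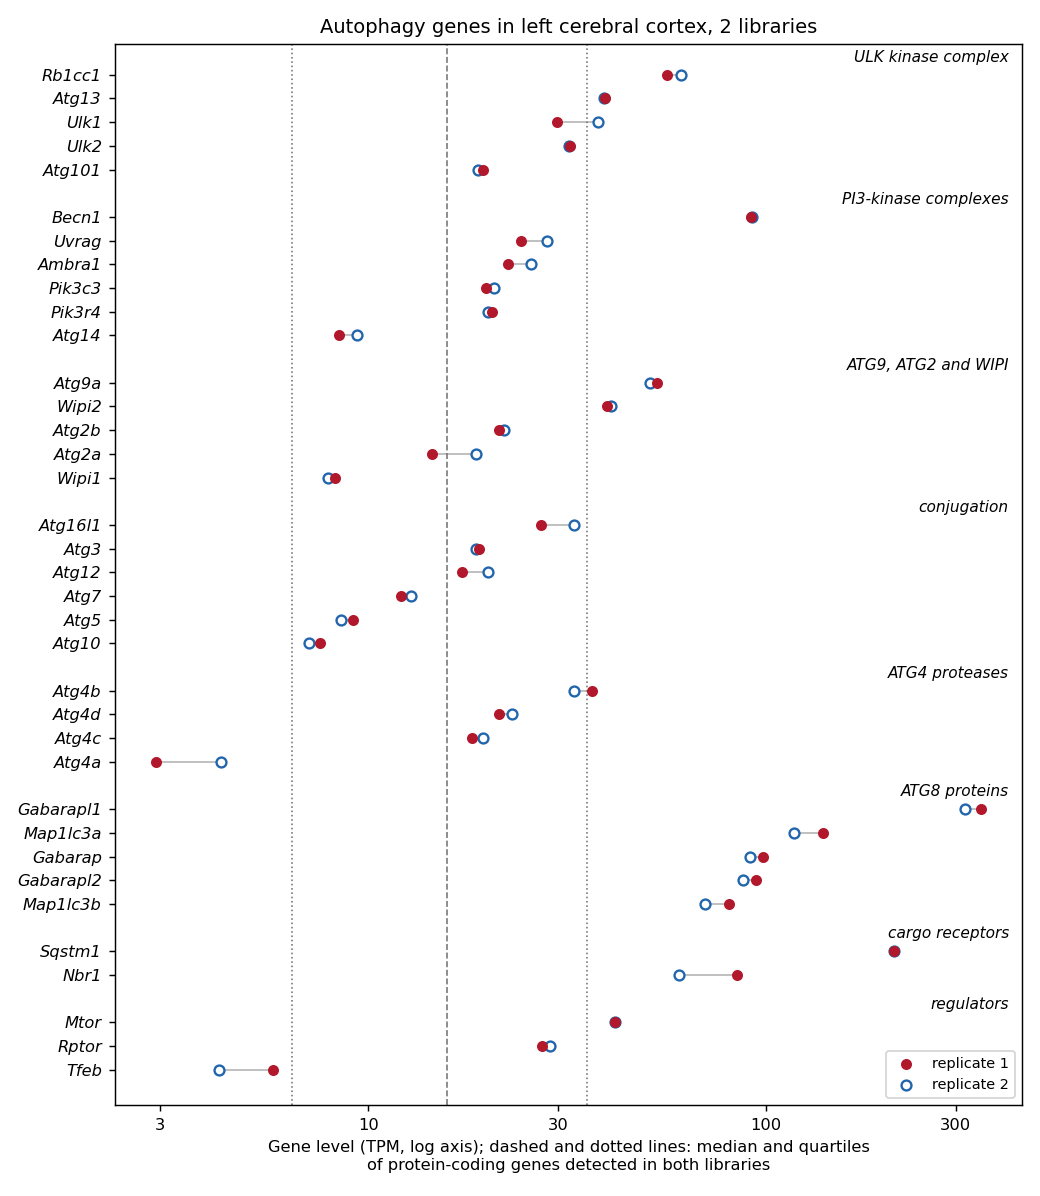
Level of each autophagy gene (TPM, log axis) in replicate 1 (filled) and replicate 2 (open), grouped by role, with the median (dashed) and quartiles (dotted) of detected protein-coding genes. Gabarapl1 stands highest at 347 and 316 TPM, and Atg4a (2.92 and 4.25 TPM) and Tfeb (5.75 and 4.21 TPM) lie at the low end.

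Subunit genes of the initiation complex averaged 19.1 to 58.8 TPM. Rb1cc1, the large scaffold also called FIP200, was the highest, with 56.4 TPM in replicate 1, against 61.2 TPM in replicate 2. By transcripts of the protein-coding class alone it was still the highest, at 41.2 and 42.9 TPM in replicates 1 and 2. Most of these have an incomplete coding sequence. The only complete one, Rb1cc1-201, had 10.5 TPM in replicate 1, against 8.31 TPM in replicate 2, below the coding Ulk2-201 at 26.8 and 29.2 TPM. Atg13, the adaptor that the kinase phosphorylates, had 39.2 TPM in both libraries. Ulk1 had 29.7 TPM in replicate 1, against 37.9 TPM in replicate 2. Ulk2, its paralog, had 32.2 and 32.0 TPM in replicates 1 and 2. The kinases therefore shared the family total almost evenly, with Ulk1 at 51.1 ± 4.40% of it (SD, n = 2), and their order turned between the libraries. By transcripts of the protein-coding class alone the order did not turn. Ulk2 then had 26.8 and 29.2 TPM in replicates 1 and 2, against 23.0 and 24.9 TPM for Ulk1. In the alignment-free tables those values were 34.6 and 37.8 TPM for Ulk2, against 33.9 and 37.3 TPM for Ulk1. Atg101, which stabilises ATG13, was the lowest subunit, with 19.4 TPM in replicate 1, against 18.8 TPM in replicate 2.

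Among the genes of the lipid kinase complexes, which make phosphatidylinositol 3-phosphate, Becn1 (Beclin 1) stood far above its partners, with 91.4 TPM in replicate 1, against 92.3 TPM in replicate 2. The catalytic subunit gene Pik3c3 (VPS34) had 19.7 TPM in replicate 1, against 20.7 TPM in replicate 2. Pik3r4 (VPS15), the regulatory subunit, had 20.5 and 19.9 TPM in replicates 1 and 2. Over all transcripts these 2 subunits lay within 1 TPM of each other. By the protein-coding class alone Pik3c3 was higher, at 18.9 and 20.0 TPM in replicates 1 and 2, against 13.6 and 12.3 TPM for Pik3r4. The alignment-free values of that class were 30.3 and 30.6 TPM for Pik3c3, against 23.0 and 20.5 TPM for Pik3r4. Atg14, which directs the complex to autophagosome formation, was lower, with 8.41 TPM in replicate 1, against 9.34 TPM in replicate 2. Uvrag, the alternative subunit found in the endosomal complex, had 24.3 TPM in replicate 1, against 28.1 TPM in replicate 2. Uvrag exceeded Atg14 in both libraries. By transcripts of the protein-coding class alone the 2 genes were closer. Uvrag then had 9.78 and 9.43 TPM in replicates 1 and 2, against 7.74 and 8.30 TPM for Atg14. In the alignment-free tables that order turned in replicate 2, with 15.1 TPM for Uvrag against 15.9 TPM for Atg14. Ambra1, a Beclin 1 partner, had 22.4 TPM in replicate 1, against 25.6 TPM in replicate 2. Most of the Becn1 signal was placed on transcripts outside the protein-coding class, as described further on, so its gene level is not the level of its full coding transcript.

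Of the genes for membrane supply, Atg9a, a scramblase carried in vesicles, was the highest, with 53.2 TPM in replicate 1, against 51.1 TPM in replicate 2. Lipid transfer protein genes Atg2a and Atg2b were closer to the member median. Atg2a had 14.5 TPM in replicate 1, against 18.6 TPM in replicate 2. Atg2b had 21.3 and 21.9 TPM in replicates 1 and 2, and made up 56.8 ± 3.91% of the ATG2 total (SD, n = 2). WIPI proteins bind phosphatidylinositol 3-phosphate. Wipi2, which recruits ATG16L1, had 39.8 TPM in replicate 1, against 40.8 TPM in replicate 2. It made up 83.3 ± 0.624% of the total of Wipi1 and Wipi2, with Wipi1 at 8.23 and 7.92 TPM in replicates 1 and 2.

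The conjugation genes had the lowest median of the 8 roles, at 15.2 TPM, against 20.5 TPM for the ATG4 proteases and 28.0 TPM for the regulators. By summed level they stood above only the ATG4 proteases and the regulators, which hold 4 and 3 genes, against 6. ATG7 is the activating enzyme for ATG12 and for the ATG8 proteins, and its gene had 12.1 TPM in replicate 1, against 12.8 TPM in replicate 2. Atg3, the enzyme that transfers ATG8 to lipid, had 19.0 and 18.6 TPM in replicates 1 and 2. Atg10, which transfers ATG12 to ATG5, was the lowest of the role, with 7.57 TPM in replicate 1, against 7.11 TPM in replicate 2. Atg12 had 17.2 TPM in replicate 1, against 19.9 TPM in replicate 2. Its acceptor gene Atg5 was lower, with 9.17 and 8.53 TPM in replicates 1 and 2. Atg16l1, which holds the ATG12-ATG5 conjugate at the membrane, was the highest of the role, with 27.2 TPM in replicate 1, against 33.0 TPM in replicate 2.

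ATG4 proteases both process ATG8 precursors and release ATG8 from lipid. Atg4b led the family, with 36.4 TPM in replicate 1, against 33.0 TPM in replicate 2, or 43.8 ± 3.38% of the family total (SD, n = 2). Atg4d had 21.3 TPM in replicate 1, against 23.0 TPM in replicate 2. Atg4c had 18.2 and 19.4 TPM in replicates 1 and 2. By the protein-coding class alone Atg4b still led, at 25.8 and 18.5 TPM in replicates 1 and 2. Its only transcript of that class with a complete coding sequence, Atg4b-201, had 11.7 TPM in both libraries. The complete coding transcripts of Atg4c were higher, at 15.4 and 15.6 TPM. In the alignment-free tables they had 26.8 and 28.3 TPM, against 17.0 and 16.5 TPM for Atg4b-201. Atg4a had the lowest mean of all members, with 2.92 TPM in replicate 1, against 4.25 TPM in replicate 2, on 91 and 76 expected counts. Of its 100-base stretches, the length of a read, 34.7% also occur in the retrocopy Atg4a-ps, so its level is uncertain. Relative to all expressed protein-coding genes, Atg4a was also 1.79-fold higher in the alignment-based than in the alignment-free tables; it was the only member past 1.5-fold on that side, with 6.09% of those genes past it in either direction and 1.83% on that side.

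ATG8 genes were the most abundant role, with a summed 760 TPM in replicate 1, against 682 TPM in replicate 2, or 42.2% and 39.4% of the TPM of all members. Gabarapl1 was the highest member, with 347 TPM in replicate 1, against 316 TPM in replicate 2. It alone made up 46.0 ± 0.478% of the family (SD, n = 2), and 46.8 ± 0.435% in the alignment-free tables. Map1lc3a (LC3A) had 139 TPM in replicate 1, against 117 TPM in replicate 2. Map1lc3b (LC3B), the member most used as a marker of autophagosomes, had 80.9 TPM in replicate 1, against 70.1 TPM in replicate 2. LC3 genes thus stayed below Gabarapl1 in both libraries. Gabarap had 98.5 and 91.2 TPM in replicates 1 and 2. Gabarapl2, also called GATE-16, had 94.3 and 87.3 TPM in replicates 1 and 2. By the protein-coding class alone Map1lc3a was lower, at 54.9 and 54.2 TPM in replicates 1 and 2. Map1lc3b then had 79.5 and 67.9 TPM, and Gabarap 89.3 and 77.1 TPM. In the alignment-free tables Map1lc3a stayed above both by that class, at 205 and 181 TPM. Map1lc3b had 202 and 174 TPM there, and Gabarap 155 and 135 TPM. The GABARAP genes together held 71.8 ± 1.05% of the family total (SD, n = 2), and 68.4 ± 0.614% in the alignment-free tables. On the opposite side, the alignment-based level of Map1lc3b was 0.63 of its alignment-free level relative to the same genes, the only such member, with 4.26% of genes past 1.5-fold on that side. Its sequence shares 2.32% of its 100-base stretches with the processed pseudogene Gm6055, to which 150 counts in replicate 1 and 76.6 in replicate 2 were assigned.

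By mean level in the alignment-based tables, both cargo receptor genes ranked among the 8 highest members. Nbr1, at rank 8 there, was at rank 9 in the alignment-free tables and fell below Rb1cc1 (61.2 TPM) in replicate 2. Sqstm1 (p62) binds ubiquitin and ATG8 proteins and is itself degraded by autophagy. It had 210 TPM in replicate 1, against 210 TPM in replicate 2. Its log2 ratio of replicate 1 over replicate 2 from counts was 0.12, and 0.17 in the alignment-free tables. Nbr1, a receptor of similar domain make-up, had 84.6 TPM in replicate 1, against 60.4 TPM in replicate 2. Regulator genes were at lower levels. Mtor, the kinase that holds autophagy off when nutrients are present, had 41.8 TPM in both libraries. Rptor, which brings substrates to it, had 27.4 TPM in replicate 1, against 28.6 TPM in replicate 2. Tfeb, a transcription factor for lysosomal and autophagy genes, had 5.75 TPM in replicate 1, against 4.21 TPM in replicate 2, and its order with Atg4a turned between the libraries.

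Between the libraries, Nbr1 was the only member past 1.5-fold, with 14.3% of the 18246 genes tested past it in either direction and 3.62% past it on the higher side in replicate 1. Most of those genes have few counts. Of the 5201 protein-coding genes averaging at least 1000 counts, 0.769% were past 1.5-fold and 0.250% were past it on the higher side in replicate 1. Nbr1 had 6841 expected counts in replicate 1, against 3376 in replicate 2, a log2 ratio of 0.64. The alignment-free tables gave 7741 estimated counts in replicate 1, against 3816 in replicate 2, a log2 ratio of 0.72. Gfap, Cldn5 and Ttr lay on the same side, while Slc1a2, Aqp4 and Flt1 lay between -0.05 and 0.10, and the part of these cell types in the Nbr1 difference was not tested. In bulk tissue, fewer cells of a type and less RNA per cell cannot be told apart. With 1 library on each side there is no test of any of these ratios.

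Other members differed little: 32 of 36 lay within 0.2 of 0 on the log2 scale, and 22 of 36 were higher in replicate 1, against 55.8% of protein-coding genes tested. The median size of the log2 ratio was 0.0975 over the members and 0.103 over protein-coding genes with 1000 counts or more. Atg16l1 was the lowest in replicate 1, with a log2 ratio of -0.26 from 1591 counts in replicate 1 and 1463 in replicate 2. All 5 ATG8 genes were higher in replicate 1, by log2 ratios of 0.15 to 0.26. The libraries differed by transcript length, however. The median log2 ratio over protein-coding genes was 0.16 for the shortest genes and -0.08 for those over 6000 bases. Relative to genes of like length, the ATG8 genes were higher in replicate 1 by 0.05 to 0.16, Nbr1 by 0.63, and the median member by 0.02.

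**Figure D2:**
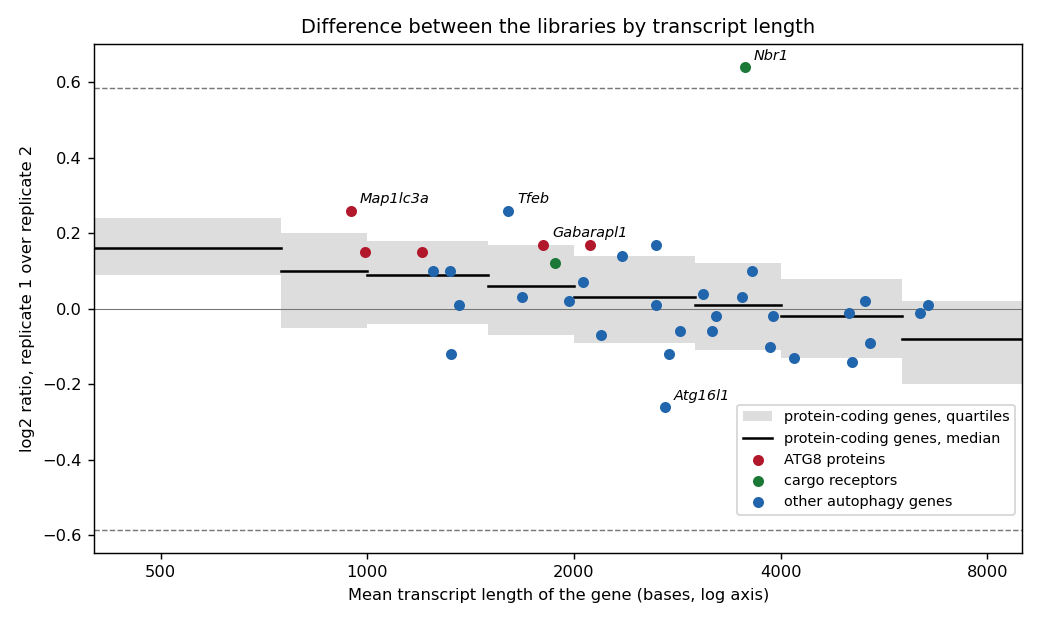
Log2 ratio of replicate 1 over replicate 2 for each autophagy gene against the mean length of its transcripts (bases, log axis), with the median (line) and quartiles (grey) of protein-coding genes by length. Nbr1 lies past the 1.5-fold line (dashed) at 0.64, and the ATG8 genes lie at 0.15 to 0.26, among short genes whose median is also above 0.

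At the transcript level, the same transcript led in all 4 tables (both kinds, both libraries) for 23 of 36 members, against 65.0% of protein-coding genes with several transcripts. The leader was the same in both libraries for 32 members in the alignment-based tables and 35 in the alignment-free tables, so leaders changed more often between the kinds of table than between the libraries. In the alignment-based table of replicate 1 the leader of 4 members, Becn1, Atg4d, Map1lc3a and Gabarapl2, was outside the protein-coding class. The same held for 8.20% of expressed protein-coding genes with several transcripts. Gabarapl1-201 held 98.8 ± 0.141% of its gene in the alignment-based tables and 79.8 ± 0.659% in the alignment-free ones (SD, n = 2). Sqstm1-202, the full coding transcript, held 84.3 ± 5.65% and 76.9 ± 1.22% in the same order of tables. For 4 of the 5 ATG8 genes the leader changed.

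Map1lc3a-201, the coding transcript, held 42.9 ± 4.83% of Map1lc3a TPM in the alignment-based tables and 87.0 ± 1.17% in the alignment-free ones (SD, n = 2). The rest of Map1lc3a lay mainly on Map1lc3a-203, a processed transcript with 9.35% of its 100-base stretches to itself. Map1lc3b-201, with 125 codons, held 69.3 ± 1.77% in the alignment-based and 33.9 ± 0.0267% in the alignment-free tables. The shorter Map1lc3b-203 held 22.2 ± 2.14% in the alignment-based and 59.5 ± 2.40% in the alignment-free tables. Gabarap-201, with 117 codons, held 38.2 ± 0.144% and 59.0 ± 0.387% in that order, against 49.4 ± 4.27% and 34.6 ± 4.04% for the shorter Gabarap-202. Gabarapl2 was split in every table between the coding Gabarapl2-201 and the intron-retaining Gabarapl2-203, at 49.0 ± 0.106% and 49.6 ± 0.345% in the alignment-based tables.

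**Figure D3:**
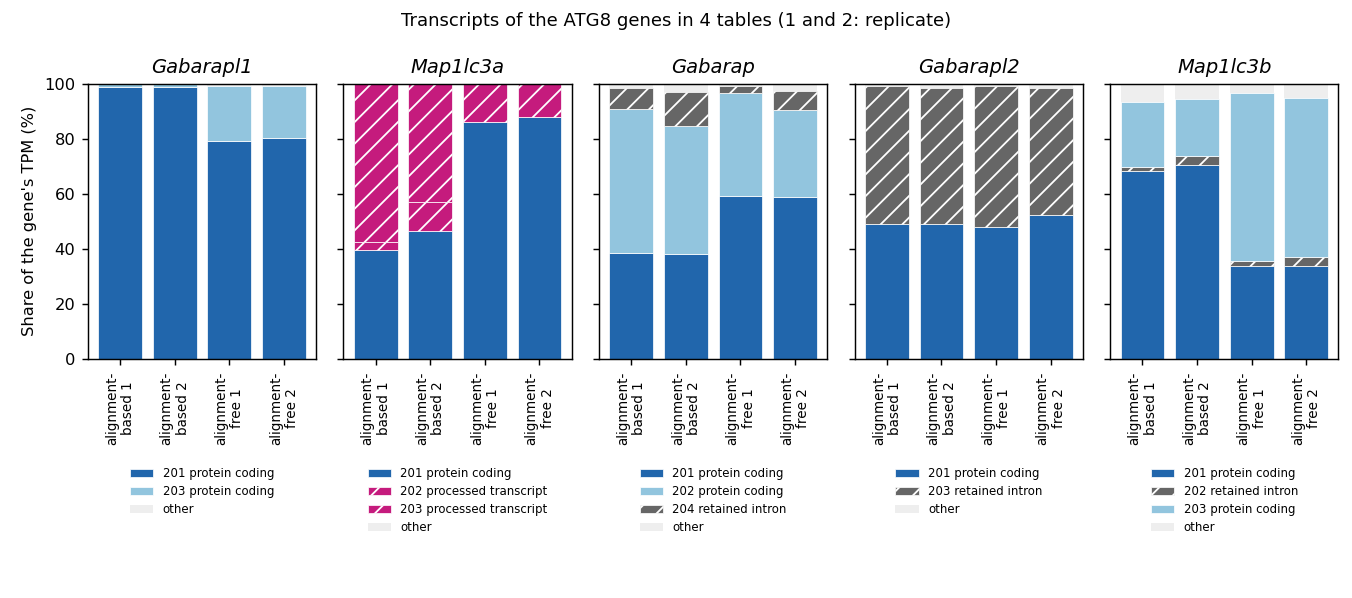
Share of each ATG8 gene's TPM (%) held by its transcripts in the alignment-based and alignment-free tables of replicates 1 and 2, with hatched parts outside the protein-coding class. Map1lc3a-201 holds 42.9% on average in the alignment-based and 87.0% in the alignment-free tables, while Gabarapl2 is split almost evenly in all 4.

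Several other members also changed leader, some between transcripts of the same coding length. Atg14-201 held 87.7 ± 1.48% of Atg14 in the alignment-based and 11.0 ± 8.86% in the alignment-free tables (SD, n = 2). Atg14-202, with the same 492 codons, held 2.68 ± 3.78% and 68.3 ± 17.1% in that order, and Atg14-201 has 0 stretches of 100 bases to itself. Atg9a-201 held 48.5 ± 5.58% in the alignment-based and 8.08 ± 4.78% in the alignment-free tables, against 28.0 ± 5.70% and 57.4 ± 3.27% for Atg9a-205, which has the same coding length. Atg13-201 held 43.9 ± 11.3% and 27.1 ± 1.06% in that order, and Atg13-202 held 30.3 ± 6.63% and 39.1 ± 0.555%. The coding sequences of this pair differ, at 1551 and 1440 bases.

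Atg7-201 led its gene in the alignment-based tables with 30.7 ± 4.21% (SD, n = 2), and Atg7-212, at 0 there, led the alignment-free tables with 266 counts in replicate 1, against 265 in replicate 2. Both carry coding sequences of 2097 bases. Atg10-201 (211 codons) held 60.6 ± 2.24% in the alignment-based and 39.4 ± 9.82% in the alignment-free tables, with the rest mainly on Atg10-203, of the nonsense-mediated decay class. Atg4b-201 held 33.7 ± 2.38% of TPM and 73.5% of counts in the alignment-based tables, and the 513-base fragment Atg4b-203 led the alignment-free tables with 37.0 ± 4.42% of TPM. Short transcripts thus led by TPM on few counts. The leader of Atg4a was Atg4a-201 in replicate 1 with 54.1% and Atg4a-203 in replicate 2 with 40.9%, on 7.06 counts. Tfeb-202 held 42.4% of Tfeb in replicate 1 and 22.1% in replicate 2, where Tfeb-212 led with 26.9%, on 35.2 and 28.7 counts.

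The excess of Nbr1 in replicate 1 was seen on its leading coding transcripts. Nbr1-202 (988 codons) had 2845 counts in replicate 1 and 1085 in replicate 2 in the alignment-based tables. Nbr1-206 had 2344 counts in replicate 1 and 1359 in replicate 2. The alignment-free tables placed 6116 counts in replicate 1 and 2996 in replicate 2 on Nbr1-202 alone. Nbr1-202 has 4.48% of its 100-base stretches to itself, so its split from Nbr1-206 rests on few reads, while the log2 ratio of the gene was 0.64 in the alignment-based and 0.72 in the alignment-free tables.

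A part of each gene was placed on transcripts annotated outside the protein-coding class, that is with retained introns, as targets of nonsense-mediated decay, or as processed transcripts. The median share over members was 17.1 ± 1.09% of TPM (SD, n = 2), against 11.8% over expressed protein-coding genes. In replicate 1 it was 16.1% over members, against 9.77% over those genes, and in replicate 2 it was 17.6%, against 13.2%. By expected counts, which give short transcripts less weight, it was 6.70% over members, against 4.73%. The alignment-free tables gave 15.3% over members, against 13.9%. For 7 members the share was 50% or more, with 10.9% of expressed protein-coding genes at that level. In decreasing order these were Atg4d, Becn1, Uvrag, Map1lc3a, Atg4a, Rptor and Gabarapl2. Only Becn1 and Atg4d were at 50% or more by TPM, by counts and in the alignment-free tables alike. At the other end, Atg5, Atg101, Wipi1 and Gabarapl1 had 0% in every table. For Atg101 and Gabarapl1 this was fixed by the annotation, since all their transcripts are of the protein-coding class.

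**Figure D4:**
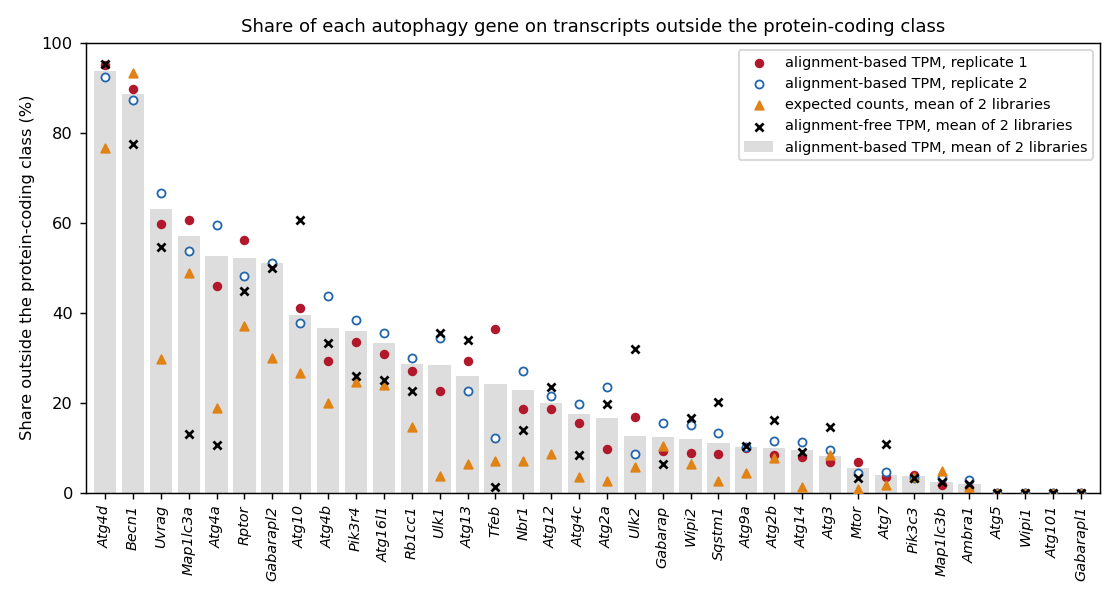
Share of each autophagy gene on transcripts outside the protein-coding class (%), by TPM in replicates 1 and 2 and their mean (bars), by expected counts (triangles) and in the alignment-free tables (crosses). Atg4d at 93.7% and Becn1 at 88.5% of TPM remain above 50% by all measures, while Map1lc3a and Atg4a drop to 13.0% and 10.5% in the alignment-free tables.

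Beclin 1 is encoded in full, with 448 codons, by 1 of the 17 annotated Becn1 transcripts, the 4365-base Becn1-205. It held 0.833 ± 0.0942% of the gene's TPM (SD, n = 2), on 67.2 counts in replicate 1 and 59.5 in replicate 2. The alignment-free tables placed 61.4 counts on it in replicate 1 and 82.7 in replicate 2. By contrast, the 2123-base Becn1-201, of the nonsense-mediated decay class, held 36.4 ± 3.18% of TPM and 58.3% of counts. Becn1-201 includes all 1347 bases of the Beclin 1 coding sequence, keeps 8 of its 10 splice junctions and has 68 further bases between them. Of its 100-base stretches, 9.49% occur in no other Becn1 transcript. Becn1 also overlaps the exons of Cntd1 on the opposite strand, over 51.5% of Becn1-205 and 33.3% of Becn1-201. Cntd1 itself had 12 counts in replicate 1 and 15 in replicate 2. By coding-class TPM alone, Becn1 had 9.30 TPM in replicate 1, against 11.8 TPM in replicate 2, which put it at rank 28 of the members, against rank 5 by all transcripts. In the alignment-free tables it was at rank 12 by coding-class TPM, against rank 5.

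Atg4d showed the same arrangement. Its only coding transcript, the 5951-base Atg4d-201 with 474 codons, held 6.28 ± 1.83% of TPM (SD, n = 2) and 23.5% of counts. The 2123-base Atg4d-203, of the retained-intron class, held 44.1 ± 10.1% of TPM and 56.3% of counts. Atg4d-203 includes all 1425 bases of the coding sequence, keeps 7 of its 9 splice junctions and has 202 further bases between them. Of its 100-base stretches, 18.0% are its own, and 13.6% of its length overlaps exons of Kri1 on the opposite strand, which had 599 counts in replicate 1 and 510 in replicate 2. By coding-class TPM, Atg4d had the lowest mean of the 36 members in both kinds of table, with alignment-based values of 1.06 TPM in replicate 1, against 1.74 TPM in replicate 2. Atg4a, at 1.58 and 1.72 TPM in replicates 1 and 2, was lower than Atg4d in replicate 2 of the alignment-based tables. Whether the added bases of Becn1-201 and Atg4d-203 were covered by reads was not tested.

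Sequence sharing with other genes was counted for the members only, with no share over all genes to set beside it. In the same orientation, 28 of 36 share no 100-base stretch with another gene. After Atg4a, the largest share in that orientation was 27.8% for Atg9a, with the processed transcript gene Gm29253. To Gm29253, 21.5 counts in replicate 1 and 32.0 in replicate 2 were assigned. Gabarapl2 shares 4.41% with the processed pseudogene Gm3724, and Rb1cc1 shares 0.656% with Gm13961. Exons of 11 members overlap a gene on the opposite strand. The largest share in the opposite orientation was 30.7%, of Becn1 with Cntd1. The sources used here do not state whether counting used strand, so sharing in the opposite orientation cannot be set aside.

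A wider list of 62 autophagy genes outside the 36, covering fusion factors, selective receptors and nutrient sensors, was set beside them. All 62 were detected at 1 TPM in both libraries; their median was 26.5 TPM, close to the 27.1 TPM of the members. The highest were the mitophagy kinase gene Pink1 at 141 ± 10.3 TPM, the late endosome GTPase gene Rab7 at 141 ± 7.64 TPM and the transcriptional co-repressor gene Trim28 at 94.8 ± 9.52 TPM (SD, n = 2).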

How the data were processed

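Per the text deposited with each library, values refer to mm10 and GENCODE M21. That text gives a transcriptome alignment as input of the gene table and of 1 transcript table, and the reads with an index as input of the other. Which aligner and quantifiers made them is not given in the sources used here. The deposited expected counts and estimated counts are not normalized, the deposited TPM values are scaled within each library by the authors, and the deposited percent values give each transcript's share of its gene. Shares were recomputed from TPM and lay within 0.108 percentage points of the deposited ones. Deposited TPM interval bounds and posterior SDs of counts, of unstated level, were not used for any printed value.

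Expected counts were rounded, genes averaging at least 10 counts kept, and log2 CPM ratios taken with edgeR 4.0.16 (R 4.3.3; TMM, prior count 2), with DESeq2 1.42.0 size factors as an alternative. On simulated data with 18246 genes, 200 of them were changed by known folds. The mean log2 ratio over the genes of each fold was off by at most 0.06, which is not the error of a single gene. The simulated coefficient of variation was 10%, against a common value of 13.9% in these data. Table ratios used log2(TPM + 0.1) relative to the median of 13072 expressed protein-coding genes, whose alignment-free TPM was 1.59-fold and 1.62-fold higher in replicates 1 and 2. A count of 0 allows up to 3 counts, 0.0927 CPM in replicate 1 and 0.121 CPM in replicate 2, for counting error only. With 1 group no p-value was computed. The members, marker genes and wider list were chosen with earlier results of these data known, and every member is named. Reads from CAST/EiJ alleles were placed on the C57BL/6J-based genome, and the effect was not analysed here. Differences between the libraries within the wider list are not reported here.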

Additional observations from a re-analysis of the deposited data

How the results depend on the processing

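All 36 members stayed detected at 0.5 TPM, and 34 did at 5 TPM. The median member TPM was 61.4 when rescaled over nuclear protein-coding genes, 44.9 in the alignment-free tables, and 25.7 to 28.4 with 1 library left out. The count past 1.5-fold stayed at 1 under DESeq2 size factors, another prior count, no count filter, the alignment-free tables, a lower fold and, chosen after seeing the data, relative to genes of like length. It was 0 past 2-fold. Of 180 member ratios under alternatives, 1 moved and 0 reversed. The median table ratio was 0.02, 0.00 with a pseudocount of 1 TPM, and 0.02 to 0.04 with 1 library left out. The share outside the protein-coding class was 15.3% in the alignment-free tables, 6.70% by counts, and 16.1% to 17.6% with 1 library left out. The same transcript led for 29 members when ranked by counts, 26 among protein-coding transcripts, and 24 to 27 with 1 library left out. The causes were not tested.

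No paired analysis was possible because there is 1 group. Low depth limits Atg4a, Tfeb and Atg10, and few unique bases limit transcript shares.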
